A study of Mus musculus with 2 samples.

Results

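The eye field is the patch of the anterior neural plate from which both eyes arise. A small set of transcription factors marks it: Rax, a homeobox factor required to form the optic vesicle, Pax6, a paired-box factor needed for eye formation, Six6, a sine oculis-type homeobox factor of retinal progenitors, and Lhx2, a LIM homeobox factor that acts in the optic vesicle. The tissue they mark comes from the epiblast, whose own genes, such as Pou5f1 and Fgf5, are switched off as the neural plate forms. The cells described here were the day 4 cells of mouse eye organoids that already held transcripts of at least 2 of these 4 genes.

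The organoids were grown from 1 line of mouse embryonic stem cells, heterozygous for a green fluorescent protein gene knocked in at Rax, so all cells of both days carry 1 altered Rax copy. Cells of culture day 4 and day 6 were profiled with a droplet kit that reads transcript 3′ ends (10x Genomics, version 2), in 1 library per day, and each library pooled 3 biological experiments that cannot be told apart in the files. With 1 library per day there is no replicate, no test was made, and every 95% interval below covers counting error only. Levels are unique molecular identifiers (UMIs, 1 per captured transcript) added up over all cells of a group and scaled to 1000000 UMIs (CPM).

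The cells were chosen by measured values of these libraries. The rule kept day 4 cells with at most 26000 UMIs, at most 5000 genes, 0.5 to 10% mitochondrial UMIs, fewer than 10 UMIs of the naive pluripotency gene Dppa5a, and a UMI of 2 or more of Rax, Pax6, Six6 and Lhx2. It found 133 of the 6228 day 4 cells within the limits (2.14%, Clopper-Pearson interval 1.79 to 2.53%), among 9114 day 4 barcodes and 16560 barcodes in all. The cells they were compared with were the other 6095 day 4 cells within the limits, and 4439 day 6 cells that passed the whole rule, which were 75.5% (74.4 to 76.6%) of the 5876 day 6 cells within the limits. In day 4 cells with 10 or more Dppa5a UMIs, which should lack eye field transcripts, 3 of 1584 (0.189%) held 2 or more of the genes, at a median of 11993 UMIs per cell against 11287.5 UMIs for all day 4 cells within the limits. After each cell was thinned to 5000 UMIs, 43 of 6089 day 4 cells (0.706%), 3296 of 5876 day 6 cells (56.1%) and 1 of 1566 Dppa5a-rich day 4 cells (0.0639%) still held 2 or more.

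The 133 cells were somewhat deeper than the rest of their library, and a rule on detection favours deep cells. Their median was 12821 UMIs and 2986 genes, against 11258 UMIs and 2746 genes in other day 4 cells and 12718 UMIs and 3107 genes in the day 6 cells. In total the groups held 1861190 UMIs, 73686048 UMIs and 59920747 UMIs. Of the 133 cells, 22 (16.5%) held more than 20000 UMIs, against 550 (9.02%) of other day 4 cells. Doublets and free RNA were not removed.

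The barcodes did not recur in the day 6 file more often than those of other cells. Of the 91 barcodes present in both files, 1 belonged to the 133 cells (0.752%), against 65 of the other day 4 cells (1.07%), and 63 of the day 6 cells of the same gate shared a barcode with day 4 (1.42%). The 1 shared cell held 11482 UMIs and 2 of the 4 genes on day 4, and its barcode held 14124 UMIs and 3 of the genes on day 6. Leaving out shared barcodes left 132 cells.

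The values of the 4 rule genes describe how the cells were chosen and are given with no test. Lhx2 (Ensembl ENSMUSG00000000247, GRCm38 chromosome 2, 38339281 to 38369733) was detected in 105 of the 133 cells and Pax6 (ENSMUSG00000027168, chromosome 2, 105668900 to 105697364) in 99. Rax (ENSMUSG00000024518) was detected in 73 and Six6 (ENSMUSG00000021099, chromosome 12, 72939892 to 72944899) in 30, so Six6 was the rarest of the set. Most detections of Rax, Pax6 and Lhx2 were single UMIs. Rax was at 1 UMI in 50 of its 73 cells, Pax6 in 59 of 99, Six6 in 13 of 30 and Lhx2 in 67 of 105, and the highest counts in 1 cell were 5, 10, 6 and 6 UMIs. In 58 cells (43.6%) every detected gene was at 1 UMI, and the highest sum over the 4 genes in 1 cell was 18 UMIs.

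The combinations were uneven. The pair Pax6 and Lhx2 was seen in 41 cells, Rax and Lhx2 in 28, Rax and Pax6 in 17, the trio of Rax, Pax6 and Lhx2 in 17, and all 4 genes in 9. Six6 was found with Pax6 alone in 9 cells, with Lhx2 alone in 6, with both in 4 and with Rax and Pax6 in 2, and never with Rax as the sole partner. That last state was rare on day 6 too, in 17 of 4439 cells (0.383%). Of the 30 cells with Six6, 11 had Rax (36.7%), against 2150 (78.6%) of the day 6 cells with Six6. On day 6 the full set of 4 was the most frequent state, at 1771 of 4439 cells (39.9%), and Rax was detected in 72.2%, Pax6 in 96.3%, Six6 in 61.6% and Lhx2 in 84.8% of the cells.

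The group was at intermediate levels of all 4 genes. Rax was at 58.6 CPM, against 2.81 CPM in other day 4 cells and 135 CPM in day 6 cells. Pax6 was at 104 CPM, against 2.89 CPM and 325 CPM, and Six6 was at 35.5 CPM, against 0.896 CPM and 162 CPM. Lhx2 came nearest to its day 6 level, at 96.2 CPM against 3.15 CPM in other day 4 cells and 160 CPM in day 6 cells. Just outside the rule lay 587 day 4 cells with exactly 1 of the genes, of which 181 had Rax, 190 Pax6, 36 Six6 and 180 Lhx2, while 101 cells just inside it had exactly 2. At Dppa5a, 6 of the 133 cells held 5 to 9 UMIs, and 1 cell that met the other limits had 2 or more of the genes with 10 to 14 Dppa5a UMIs.

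**Figure D1:**
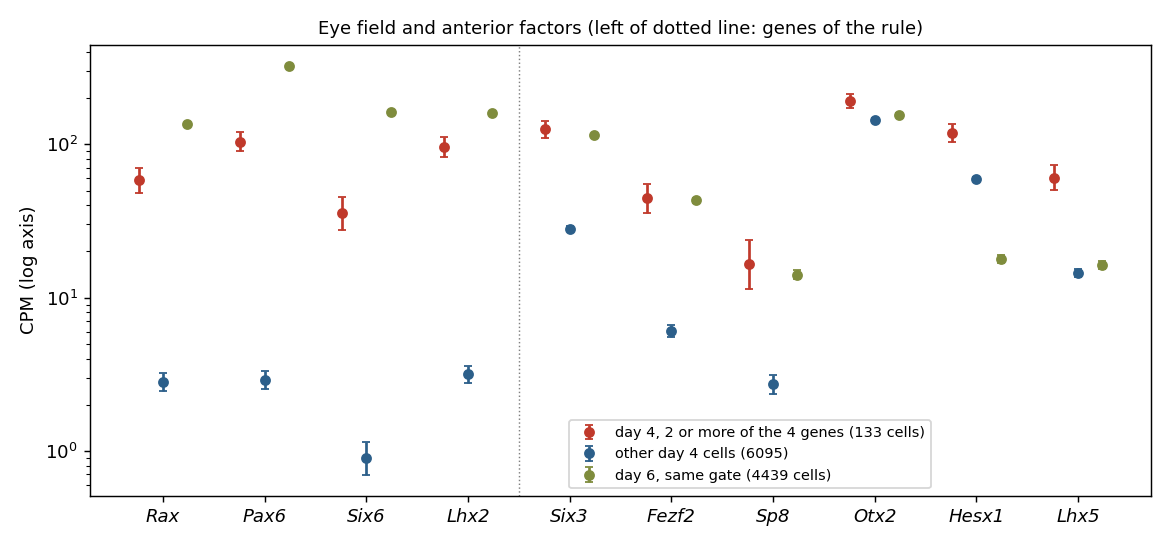
CPM on a log axis of the 4 rule genes (left of the dotted line) and of 6 other anterior factors in the 133 day 4 cells, the other day 4 cells and the day 6 cells of the same gate; bars are exact Poisson 95% intervals. Six3, Fezf2 and Sp8 in the 133 cells overlap their day 6 levels (126 against 115 CPM for Six3), whereas Hesx1 and Lhx5 lie above both other groups (119 CPM against 59.1 and 17.9 CPM for Hesx1).

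The first comparison asked how these cells differ from the other cells of their own library in genes the rule did not use. A gene counted as higher or lower where the groups differed 1.5-fold or more and the 95% interval of the ratio left out 1, provided that it averaged 10 CPM or more over the 2 groups, a filter that a gene can pass through the group where it is high. Of 6492 genes, 203 were higher (3.13%) and 207 lower (3.19%), and the median log2 ratio over all of them was 0.02. The higher genes include the 4 rule genes and the lower ones Dppa5a, which the rule used. The ratios are those of the 133 cells over the other group throughout.

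Other factors of the anterior neural plate were higher. Of 14 listed partners of the eye field set, 6 averaged enough CPM, of which 4 were higher and 0 were lower. Their median log2 ratio was 1.54, against 0.02 for all genes. Six3 (chromosome 17, 85613608 to 85629302), which keeps the anterior neural plate free of Wnt signalling in the mouse, stood at 126 CPM against 28.2 CPM, 4.46-fold higher (3.88 to 5.11). It was detected in 85 of the 133 cells, with at most 13 UMIs in 1 cell. After thinning to 5000 UMIs a Six3 UMI was found in 39.7% of the cells, 10.0% of other day 4 cells and 1.02% of Dppa5a-rich cells. Fezf2, a zinc finger factor of the forebrain, stood at 44.6 CPM against 6.05 CPM (7.37-fold, 5.76 to 9.33). Lhx5, a LIM homeobox factor of the anterior neural plate, stood at 60.7 CPM against 14.5 CPM (4.18-fold, 3.41 to 5.08).

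Hesx1 (chromosome 14, 26994416 to 27002329), a homeobox repressor of the early anterior neural plate, was at 119 CPM against 59.1 CPM (2.02-fold, 1.76 to 2.31). Otx2, which specifies the forebrain and midbrain and was already widespread, differed less, at 191 CPM against 145 CPM (1.32-fold, 1.18 to 1.46), below the limit of 1.5. Zic5 was at 49.97 CPM against 65.2 CPM, also within the limits. Several partners were below the filter on level, with few UMIs: Fezf1 at 16.1 CPM against 1.06 CPM (15.2-fold, 9.65 to 23.5), Sp8 at 16.7 CPM against 2.71 CPM (6.14-fold, 4.06 to 8.99) and Otx1 at 8.60 CPM against 0.787 CPM (10.9-fold, 5.86 to 19.3).

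Genes of regions that form later within the optic vesicle were scarce. Of 18 listed regulators of retina, pigment epithelium and optic stalk, 8 had no UMI in the 133 cells, among them Foxd1, a marker of the temporal retina. A count of 0 allows up to 3 UMIs (1.61 CPM), a level above the 0.0543 CPM of Foxd1 in other day 4 cells, so a difference was not detectable at this depth. Pax2, a factor of the optic stalk and of the midbrain boundary, was at 8.60 CPM against 1.45 CPM (5.92-fold, 3.27 to 10.1), and Mitf, the pigment epithelium factor, was at 1.61 CPM against 0.434 CPM, from 3 UMIs. Emx2, a dorsal forebrain factor, was at 9.67 CPM against 0.475 CPM (20.4-fold, 10.9 to 36.9). Pax3, a factor of the dorsal neural tube, was at 9.13 CPM against 0.950 CPM (9.61-fold, 5.30 to 16.5). Pax2, Emx2 and Pax3 were below the filter on level, so none of them was called.

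Epiblast genes were lower than in the rest of the library. Of 17 listed genes of the primed epiblast, 15 were at the required level, of which 13 were lower and 0 were higher. Their median log2 ratio was -0.92. The 13 include 6 genes taken from those that differ most between the days in these libraries (Dnmt3b, Epcam, Fgf5, Pou5f1, Rasgrp2 and Utf1). The count and the median are therefore a description and not independent evidence. Pou5f1, the core pluripotency factor, stood at 155 CPM against 337 CPM (0.459-fold, 0.407 to 0.516). Fgf5, a growth factor of the epiblast after implantation, stood at 68.8 CPM against 188 CPM (0.366-fold, 0.305 to 0.436), and Utf1, a chromatin factor of pluripotent cells, at 83.3 CPM against 226 CPM (0.368-fold, 0.312 to 0.431). The de novo DNA methyltransferase Dnmt3b stood at 343 CPM against 598 CPM (0.574-fold, 0.530 to 0.621). Pim2, a kinase, was within the limits at 286 CPM against 386 CPM. A Pou5f1 UMI was found in 45.8% of the cells after thinning, against 75.7% of other day 4 cells.

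Adhesion genes differed in both directions. The epithelial genes Cdh1 (35.5 CPM against 85.3 CPM), Epcam (77.9 CPM against 210 CPM), Cldn6 (21.5 CPM against 60.3 CPM) and Cldn7 (22.6 CPM against 66.5 CPM) were lower by size. Cdh2, the neural cadherin, was higher, at 50.5 CPM against 16.3 CPM (3.11-fold, 2.49 to 3.83). In the list of 22 adhesion and cell shape genes, 18 were at the required level, with 2 higher and 5 lower. Of 13 neural progenitor genes at the required level, 4 were higher, namely Cdh2, Fabp7, Hes5 and Sox3, and none was lower, with a median of 0.31. Cdh2 and Hes5 were also taken from genes that differ most between the days in these libraries. Hes5, a target of Notch signalling, was at 45.7 CPM against 18.5 CPM, and Sox2, a factor of both pluripotent and neural cells, was within the limits at 142 CPM against 109 CPM.

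Of the genes that averaged 50 CPM or more, the highest 12 ratios belonged to Pax6 itself, Ptn, Six3, Mest, Shisa2, Id2, Hmga2, Hesx1, Id1, Greb1l, Crabp2 and Prtg. Mest, an imprinted gene of embryonic tissues, reached 1089 CPM against 262 CPM (4.15-fold, 3.97 to 4.35), and Ptn, a secreted growth factor, 154 CPM against 34.1 CPM (4.50-fold, 3.97 to 5.09). Shisa2, which retains Wnt and FGF receptors inside the cell, stood at 110 CPM against 44.6 CPM (2.46-fold, 2.12 to 2.83). Crabp2, a retinoic acid carrier, stood at 190 CPM against 99.2 CPM (1.91-fold, 1.71 to 2.13). Greb1l stood at 67.7 CPM against 34.0 CPM (1.99-fold, 1.65 to 2.38), but this did not hold in the 32 cells with 3 or more of the genes, where its log2 ratio was -0.08.

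The Id genes, targets of BMP signalling, were higher. Id1, Id2 and Id3, inhibitors of basic helix-loop-helix factors, stood at 178 CPM against 88.6 CPM (2.01-fold, 1.79 to 2.24), 141 CPM against 59.4 CPM (2.38-fold, 2.09 to 2.70) and 407 CPM against 231 CPM (1.76-fold, 1.64 to 1.89). In the list of BMP, FGF and retinoid genes, 11 of 24 were at the required level, with 4 higher (these and Crabp2), 1 lower and a median of 0.24. The gene that was lower was Etv5, a target of FGF signalling, at 11.3 CPM against 32.3 CPM (0.350-fold, 0.216 to 0.536). Of 8 Wnt pathway genes at the required level, Fzd3, Sfrp1 and Shisa2 were higher and Lef1 was lower.

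The 12 lowest were Fgf5, Utf1, Epcam, L1td1, Cdh1, Upp1, Pou5f1, Vamp8, Mt2, Chchd10, Mt1 and Bst2. Mt1 and Mt2, metallothioneins that bind metal ions, stood at 961 CPM against 1897 CPM (0.507-fold, 0.483 to 0.531) and 564 CPM against 1130 CPM (0.499-fold, 0.469 to 0.530). Chchd10, a mitochondrial protein gene, stood at 212 CPM against 418 CPM (0.506-fold, 0.457 to 0.559).

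Since the study asked about glycolysis in retinal progenitors, the genes of that pathway were listed as well. None of the 17 glycolysis genes at the required level was higher and 2 were lower, Pfkp (5.37 CPM against 16.3 CPM) and Aldoc (8.06 CPM against 14.1 CPM), both from 15 UMIs or fewer, with a median of -0.21. Ldha, the lactate dehydrogenase subunit that favours lactate, was at 2156 CPM against 2183 CPM (0.988-fold). Slc2a1 and Slc2a3, the glucose transporters, were at 291 CPM against 415 CPM (0.702-fold) and 229 CPM against 291 CPM, within the limits. Hypoxia-responsive genes were lower in 4 of 7, Bnip3, Ddit4, Ero1l and Pdk1, with a median of -0.61. Cell cycle genes differed little, with 1 of 20 S phase genes higher and none lower, none of 20 G2 and M phase genes outside the limits, and none of 16 histone acetylases and deacetylases outside them.

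Markers of other cell types were listed beside these results. The 9 mesoderm markers summed to 3.76 CPM against 4.06 CPM in other day 4 cells, with 6 of them at 0 UMIs. The 14 primitive endoderm markers summed to 303 CPM against 398 CPM, with 5 at 0, and the 9 surface ectoderm markers to 74.7 CPM against 104 CPM, with 5 at 0. The 8 neuron markers summed to 248 CPM against 246 CPM, and most of that was Stmn2, at 176 CPM against 172 CPM. The 9 neural crest markers summed to 40.3 CPM against 18.4 CPM, with 1 at 0. Most of that sum was Sox9, at 19.3 CPM against 10.9 CPM (1.78-fold, 1.24 to 2.49), Pax3, given above, and Tfap2a, a factor of neural crest and surface ectoderm, at 8.06 CPM against 0.991 CPM (8.14-fold, 4.33 to 14.3). Foxd3 was at 0.537 CPM against 2.75 CPM, Twist1 at 0.537 CPM against 0.841 CPM and Ets1 at 1.61 CPM against 1.63 CPM. Sox10 had no UMI. Tfap2b and Snai2 were at 0.537 CPM, from 1 UMI each, against 0.0950 CPM and 0.190 CPM. The 15 midbrain and hindbrain factors, which mark more posterior neural tissue, summed to 26.3 CPM against 10.1 CPM in other day 4 cells and 6.14 CPM in day 6 cells, with 5 at 0. Pax3 is on that list too, as is Pax5, a factor of the midbrain boundary, at 5.37 CPM against 0.828 CPM in other day 4 cells (6.49-fold, 2.96 to 12.8) and 0.451 CPM in day 6 cells (11.9-fold, 5.15 to 25.4), from 10 UMIs. The part of these markers in the results was not tested.

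Day 4 cells differed in order by how many of the 4 genes they held. The other genes of this paragraph were taken from those that differ most between the days in these libraries. Their order is therefore a description and not independent evidence. In cells with 0, 1, 2, 3 and 4 of the genes (5508, 587, 101, 23 and 9 cells), Mest was at 236, 479, 872, 1500.2 and 2411 CPM and Ccnd2, a D-type cyclin, at 17.9, 28.8, 48.3, 92.6 and 231 CPM. Dnmt3b ran the other way, at 609, 513, 391, 247 and 61.6 CPM, as did Pou5f1, at 346, 263, 169, 139 and 38.5 CPM. The median depth of these cells was 11066.5, 12650, 12799, 13553 and 11046 UMIs, so depth was higher along the first steps and lower at the last, and its part in the order was not tested. Fgf5 and Utf1 had no UMI in the 9 cells with all 4 genes, where a count of 0 allows up to 3 UMIs, or 23.1 CPM.

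The early anterior factors did not keep that order in the last step, where the counts are too few to resolve it. Hesx1 was at 53.1, 109, 125, 117 and 61.6 CPM along the same steps, Lhx5 at 12.2, 33.6, 62.5, 61.7 and 38.5 CPM, and Fezf2 at 4.41, 19.7, 46.9, 49.4 and 7.70 CPM. Six3 was at 23.2, 69.8, 117, 157 and 139 CPM. The last step rests on 9 cells, and its intervals for Hesx1 (26.6 to 121 CPM), Lhx5 (12.5 to 89.9 CPM) and Six3 (82.2 to 219 CPM) include the levels of the cells with 3 genes, while that of Fezf2 (0.195 to 42.9 CPM, from 1 UMI) overlaps the interval of the cells with 3 genes (28.2 to 80.2 CPM).

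**Figure D2:**
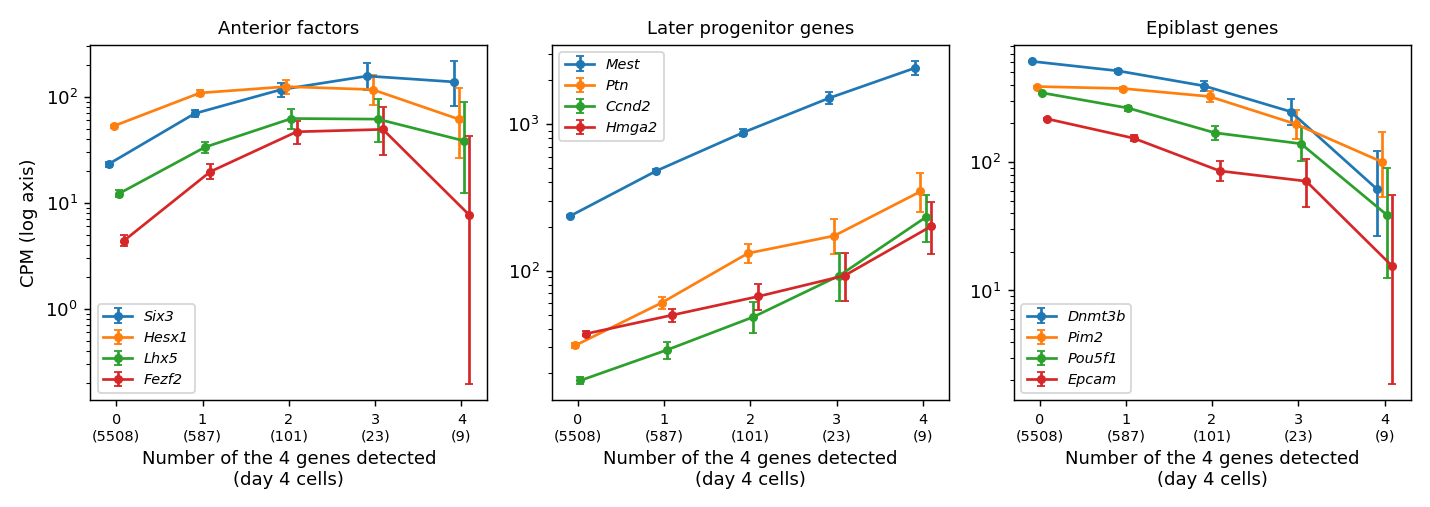
CPM on a log axis of anterior factors, later progenitor genes and epiblast genes in day 4 cells by the number of the 4 rule genes detected, with the number of cells below each step; bars are exact Poisson 95% intervals. Mest is at 236 CPM in cells with none and 2411 CPM in cells with all 4, Dnmt3b at 609 and 61.6 CPM, and Hesx1 is highest in cells with 2 genes (125 CPM).

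To place each cell, 7 later progenitor genes (Ccnd2, Cdh2, Crabp1, Hes5, Hmga2, Mest and Ptn) and 7 earlier epiblast genes (Dnmt3b, Epcam, Fgf5, Pim2, Pou5f1, Rasgrp2 and Utf1) were summed per 10000 UMIs. Both lists were taken from genes that differ most between the days in these same libraries, so their direction is not independent evidence. The earlier sum had a median of 9.47 in the 133 cells, against 20.3 in other day 4 cells and 0.623 in day 6 cells. The later sum had a median of 12.3, against 2.88 and 29.5. It exceeded the earlier sum in 72 of the 133 cells (54.1%), against 260 of 6095 other day 4 cells (4.27%) and 4433 of 4439 day 6 cells (99.9%).

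The 133 cells were spread over the whole range between the other 2 groups. Transcripts of both lists were present in 129 cells (97.0%), against 87.8% of other day 4 cells and 58.1% of day 6 cells, and in 46 cells (34.6%) the sums lay within 2-fold of each other. The earlier sum ran between 0 and 27.3 and the later sum between 0 and 48.9 per 10000 UMIs.

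**Figure D3:**
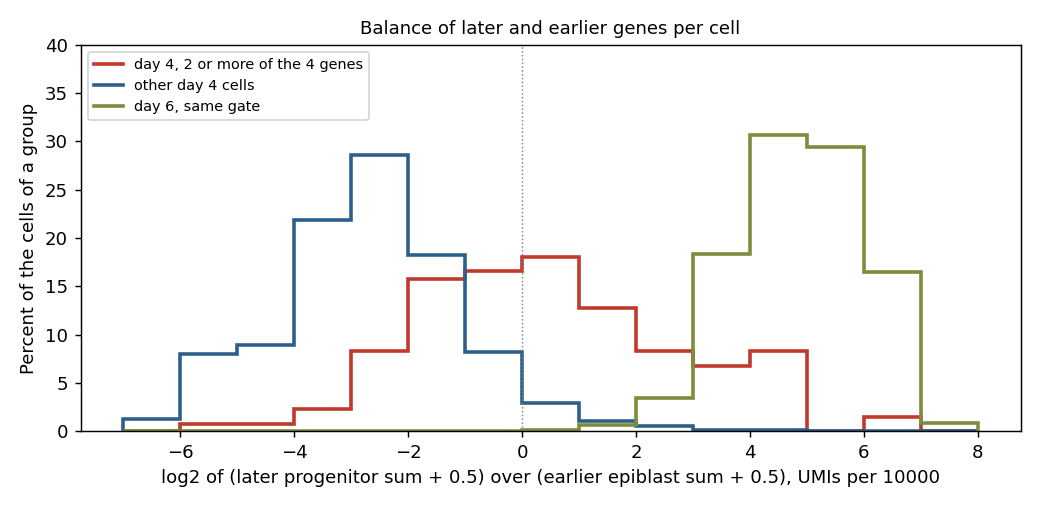
Percent of the cells of each group by the log2 ratio of the later progenitor sum to the earlier epiblast sum, in bins of 1 (0.5 added to both sums). The 133 day 4 cells centre near 0, with 72 above equal sums, while other day 4 cells lie mostly below (260 of 6095 above) and day 6 cells nearly all above (4433 of 4439).

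The anterior factors were also higher in the members on the earlier side of that balance. Among cells whose earlier sum was at least as large as the later one, the 61 cells of the rule were compared with 5835 other day 4 cells. This comparison was chosen after the data were seen and did not match the groups on the balance. The earlier and later sums had medians of 16.1 and 6.57 in the 61 cells, against 20.3 and 2.88 in all other day 4 cells. Six3 was at 91.2 CPM against 25.8 CPM (3.53-fold, 2.79 to 4.40), Lhx5 at 54.5 CPM against 13.3 CPM (4.09-fold, 3.0 to 5.45) and Fezf2 at 35.6 CPM against 5.16 CPM (6.90-fold, 4.65 to 9.91). Hesx1 was at 116 CPM against 57.6 CPM (2.01-fold, 1.64 to 2.44) and Id1 at 208 CPM against 82.6 CPM (2.52-fold, 2.17 to 2.91). Otx2 passed the limit here, at 229 CPM against 146 CPM (1.57-fold, 1.36 to 1.80). Crabp2, at 109 CPM against 98.4 CPM, did not.

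On the later side, 72 cells of the rule were set beside 260 others. Six3 was at 158 CPM against 84.9 CPM (1.86-fold, 1.51 to 2.28), Fezf2 at 53 CPM against 27.5 CPM (1.93-fold, 1.33 to 2.77) and Lhx5 at 66.5 CPM against 43.1 CPM (1.54-fold, 1.12 to 2.10). Crabp2 was higher here, at 265 CPM against 117 CPM (2.26-fold, 1.92 to 2.67). Hesx1 and Otx2 were within the limits, at 123 CPM against 94.4 CPM and 156 CPM against 126 CPM, and Id1 was lower, at 149.7 CPM against 233 CPM (0.642-fold, 0.533 to 0.770), the reverse of its direction on the earlier side. Whether the ratios differ between the sides was not tested.

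The second comparison set the 133 cells beside the day 6 cells that pass the same rule, which addresses how cells with the same gene set differ 2 days apart. Day and library cannot be told apart here. Of 6637 genes, 344 were higher in the day 4 cells (5.18%) and 714 lower (10.8%), and the median log2 ratio of all genes was -0.11. Higher genes made up 32.5% of those called, 45.2% with totals that leave out mitochondrial and ribosomal protein genes and 50.9% with ratios centred on the median gene, so the excess of lower genes depends on the scaling.

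Epiblast genes were far above their day 6 levels. Of 14 primed epiblast genes at the required level, 11 were higher and 0 were lower. Their median log2 ratio was 3.68, against -0.11 for all genes. The 11 include all 7 earlier epiblast genes, which were taken from genes that differ most between the days in these libraries. The count and the median are therefore a description and not independent evidence. Pou5f1 was at 155 CPM in the 133 cells against 2.62 CPM on day 6 (59.1-fold, 48.5 to 72.2), Fgf5 at 68.8 CPM against 1.02 CPM (67.6-fold, 49.4 to 93.2) and Pim2 at 286 CPM against 4.96 CPM (57.8-fold, 50.04 to 66.8). Cdh1 was at 35.5 CPM against 0.918 CPM, and Dnmt3b at 343 CPM against 43.1 CPM (7.96-fold, 7.29 to 8.68). Sox2 was 2.21-fold higher (1.95 to 2.51), at 142 CPM against 64.1 CPM. Pou3f1, a POU factor of epiblast and early neural cells, was 8.77-fold higher (6.63 to 11.5), at 37.6 CPM against 4.29 CPM.

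The partners of the eye field set divided. Six3 (126 CPM against 115 CPM, 1.10-fold), Fezf2 (44.6 CPM against 43.2 CPM, 1.03-fold, 0.819 to 1.28), Sp8 (16.7 CPM against 14.1 CPM) and Fezf1 (16.1 CPM against 15.3 CPM) lay at the level of the day 6 cells within their intervals. Hesx1 was 6.65-fold higher (5.73 to 7.70), at 119 CPM against 17.9 CPM, Lhx5 3.72-fold higher (3.04 to 4.53), at 60.7 CPM against 16.3 CPM, and Zic5 5.24-fold higher (4.17 to 6.54), at 49.97 CPM against 9.53 CPM. Of the 8 partners at the required level these 3 were higher and none was lower, with a median of 0.27.

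Of the 18 optic vesicle regulators, 2 were at the required level against day 6, and they went in opposite directions. Mab21l2, which is needed for the lens and retina, was lower, at 3.76 CPM against 26.8 CPM (0.141-fold, 0.0564 to 0.290), and Sox9, a factor of neural progenitors and neural crest, was higher, at 19.3 CPM against 11.3 CPM (1.71-fold, 1.19 to 2.39). The forebrain factor Emx2 was lower, at 9.67 CPM against 18.5 CPM (0.524-fold, 0.309 to 0.832). Below the filter on level, and so not called, Foxd1 had no UMI against 10.3 CPM, Mitf was at 1.61 CPM against 12.5 CPM and Nr2e1, a nuclear receptor of neural progenitors, at 0.537 CPM against 17.3 CPM, from 1 UMI.

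All 7 later progenitor genes were lower than on day 6, although most already stood above other day 4 cells. They were taken from genes that differ most between the days in these libraries, so their direction against day 6 is not independent evidence. Ccnd2 was at 68.8 CPM against 259 CPM (0.265-fold, 0.221 to 0.316), Hes5 at 45.7 CPM against 167 CPM (0.274-fold, 0.218 to 0.339), Hmga2 at 80.6 CPM against 294 CPM (0.274-fold, 0.232 to 0.322) and Mest at 1089 CPM against 1942 CPM (0.561-fold, 0.536 to 0.586). Meis2, a homeobox factor of eye and forebrain, was at 28.5 CPM against 101 CPM (0.281-fold, 0.210 to 0.368), with 8.71 CPM in other day 4 cells. Id1 was higher than on day 6 as well, at 178 CPM against 78.0 CPM (2.28-fold, 2.03 to 2.55), whereas Id2 was even, at 141 CPM against 131 CPM.

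Of the genes that averaged 50 CPM or more, the 12 highest were Pou5f1, Pim2, Mt2, Dnmt3b, Hesx1, Stmn2, Snrpn, Mt1, Chchd10, Eras, Sall4 and Lgals1, and the 12 lowest Six6, Ccnd2, Hes5, Hmga2, Meis2, H2afy, Pax6, Maged1, Hmgn3, Efna5, Crabp2 and Sfrp2. Sall4, a zinc finger factor of pluripotent cells, was at 164 CPM against 55.1 CPM, and the imprinted gene Snrpn at 477 CPM against 106 CPM. H2afy, which encodes a macroH2A histone, was at 140 CPM against 445 CPM (0.314-fold, 0.277 to 0.355). The receptors Fgfr1 (96.2 CPM against 41.4 CPM) and Fgfr2 (44.6 CPM against 24.3 CPM) were higher, as were Fzd5 (34.4 CPM against 16 CPM) and Tcf7l1 (67.7 CPM against 39.3 CPM), a repressor of Wnt targets. Of 15 glycolysis genes at the required level, 1 was higher, Hk2 (149.9 CPM against 83.1 CPM, 1.80-fold, 1.59 to 2.04), and 1 was lower, Pgk1 (23.1 CPM against 43.4 CPM). Their median was -0.10, against -0.11 for all genes, and it was 0.01 after centring and 0.14 with totals without mitochondrial and ribosomal protein genes, so its sign depends on the scaling.

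Within the 133 cells, those with and without Rax differed in the anterior factors. In the 73 cells with Rax, the Six3 level was 155 CPM, against 85.0 CPM in the 60 cells without (1.82-fold, 1.36 to 2.46), Hesx1 at 148 CPM against 78.5 CPM (1.89-fold, 1.40 to 2.58) and Shisa2 at 136 CPM against 73.4 CPM (1.85-fold, 1.35 to 2.55). Ptn was lower, at 111 CPM against 214 CPM (0.518-fold, 0.406 to 0.659). Of the 286 Ptn UMIs of the 133 cells, 83 came from 15 of the cells without Rax, those with Six6 and 1 other gene. Six3, Hesx1, Shisa2 and Ptn had the same direction between the most frequent pairs. Cells with Rax and Lhx2 had Six3 at 160 CPM against 94 CPM in cells with Pax6 and Lhx2 (1.70-fold, 1.16 to 2.50), Hesx1 at 182 CPM against 109 CPM (1.67-fold, 1.17 to 2.40), Shisa2 at 133 CPM against 86.6 CPM (1.53-fold, 1.02 to 2.31) and Ptn at 54.1 CPM against 103 CPM (0.524-fold, 0.305 to 0.872). In the same pairs Otx2 differed too, at 290 CPM against 160 CPM (1.81-fold, 1.36 to 2.41). Pou5f1 was at 199 CPM against 127 CPM (1.57-fold, 1.12 to 2.19) and Ccnd2 at 29.5 CPM against 64.5 CPM (0.457-fold, 0.216 to 0.902).

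Cells with Six6 stood apart in another way. In the 30 cells with Six6, Hesx1 was at 25.4 CPM against 145 CPM in the 103 cells without (0.176-fold, 0.0830 to 0.329), Lhx5 at 22.8 CPM against 70.9 CPM (0.322-fold, 0.143 to 0.635) and Dnmt3b at 137 CPM against 399 CPM (0.344-fold, 0.255 to 0.454). Mest was at 1626 CPM against 944 CPM (1.72-fold, 1.57 to 1.89), Crabp2 at 345 CPM against 148 CPM (2.33-fold, 1.87 to 2.90) and Ptn at 396 CPM against 88.6 CPM (4.47-fold, 3.52 to 5.68). The higher Crabp2 level was not shared by the 15 Six6 cells with 1 other gene and no Rax. Their Mest UMIs were close to their share of all UMIs. The 15 cells held 17 of the 353 Crabp2 UMIs and 207 of the 2026 Mest UMIs of the 133 cells, with 187511 of the 1861190 UMIs.

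The cells with Six6 divided further by Rax and by partner gene, a split noticed in the data and described with no test. The 4 cells with Six6, Pax6 and Lhx2 but no Rax were left among the other cells of the rule. The 11 cells that held Six6 together with Rax had Six3 at 119 CPM, Shisa2 at 144 CPM, Mest at 2073 CPM, Ccnd2 at 187 CPM, Utf1 at 18.7 CPM and no Fabp7 UMI. The 15 cells that held Six6 with only Pax6 or only Lhx2, and no Rax, were low in several anterior factors. Their Six3 level was 42.7 CPM against 135 CPM in the other 118 cells of the rule (0.316-fold, 0.135 to 0.633), Hesx1 at 10.7 CPM against 131 CPM (0.0811-fold, 0.00977 to 0.297), Shisa2 at 32.0 CPM against 118 CPM (0.270-fold, 0.0981 to 0.599) and Otx2 at 112 CPM against 200 CPM. These came from 8, 2, 6 and 21 UMIs in the 15 cells. Pluripotency and epiblast genes were present in them as well, in no single direction. Dppa5a, which the rule limits to 9 UMIs a cell, was at 165 CPM against 61.5 CPM (2.69-fold, 1.74 to 4.05), from 31 UMIs in 6 cells with up to 9 in 1 cell. Tdgf1, a Nodal co-receptor of pluripotent cells, was at 58.7 CPM against 4.18 CPM (14.03-fold, 4.97 to 42.7), from 11 UMIs in 3 cells with 7 in 1 cell. A Pou5f1 UMI was found in all 15 cells, at 187 CPM against 151 CPM, within the limits. Dnmt3b and Pim2 went the other way. The 15 cells held 187511 of the 1861190 UMIs of the 133 cells, but 29 of 639 Dnmt3b UMIs and 33 of 533 Pim2 UMIs. Epcam (10 of 145 UMIs) and Fgf5 (10 of 128) were also below that share, and L1td1 (9 of 57) was above it. Since Six6 was detected in 1.14% of Dppa5a-rich day 4 cells too, a single Six6 UMI on day 4 cannot be told apart from background. The 15 cells held 33 Six6 UMIs, with up to 6 in 1 cell, and counts above 1 were not set against that background. The part of the pluripotency markers in the values of the 15 cells was not tested.

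**Figure D4:**
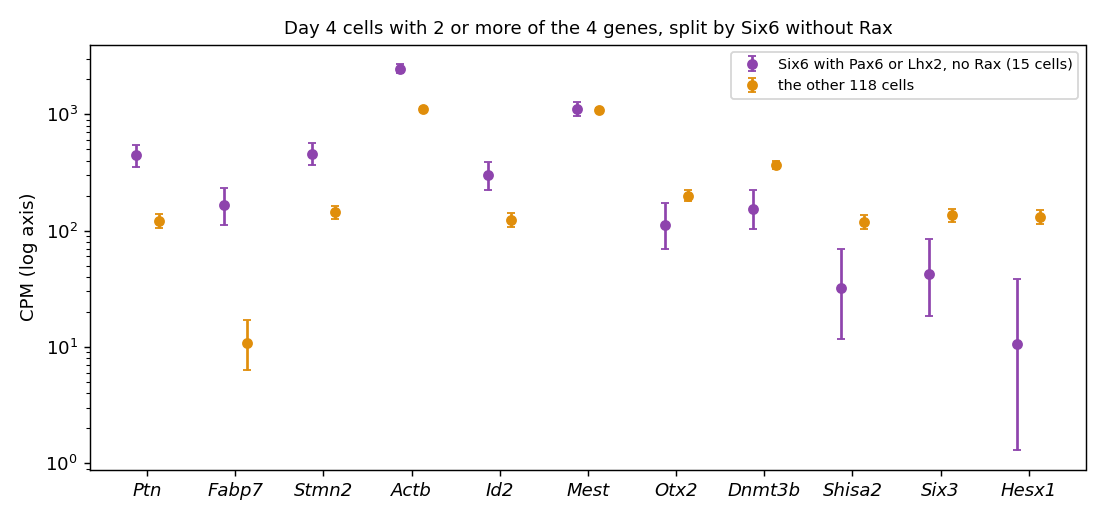
CPM on a log axis of 11 genes in 15 day 4 cells, beside the other 118 cells of the rule. The 15 cells held Six6 with only Pax6 or only Lhx2, and no Rax. The 118 include the 4 cells with Six6, Pax6 and Lhx2 but no Rax. Bars are exact Poisson 95% intervals. The 15 cells lie lower in Six3 (42.7 against 135 CPM), Hesx1 and Shisa2, higher in Ptn, Fabp7 and Stmn2, and level in Mest (1104 against 1087 CPM).

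In the same 15 cells, Ptn was at 443 CPM against 121 CPM (3.65-fold, 2.79 to 4.73). Stmn2, a gene of young neurons, was at 459 CPM against 144 CPM (3.19-fold, 2.46 to 4.09), with 172 CPM in other day 4 cells. Of the UMIs in all cells of the rule, the 15 cells held 187511 of 1861190. They held 11 of 105 UMIs of the neuron marker Tubb3, close to that share, and 1 of 17 for Elavl3, below it. Map2 (2 of 10) and Elavl4 (1 of 3) were above it, from few UMIs. Dcx, Nhlh1 and Nhlh2 had no UMI in any cell of the rule. Whether the 15 cells include neurons was not tested. Utf1 was at 139 CPM against 77.1 CPM, though its 26 UMIs came from 5 cells, with 10 in 1 cell. The thyrotropin-releasing hormone gene Trh was at 80.0 CPM against 7.17 CPM (11.2-fold, 4.88 to 26.1), with UMIs in 7 of the 15 cells and at most 4 in 1 cell, so it was not carried by a single cell. Fabp7, a fatty acid binding protein of radial glia, was at 165 CPM against 10.8 CPM, but 1 cell held 20 of its 31 UMIs, and 1 cell held 115 of the 464 Actb UMIs.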

How the data were processed

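Single cells of day 4 and day 6 organoids were measured in 2 libraries. The deposited files hold raw UMI counts per gene and barcode, made by the authors with alignment to mm10. Per the labels, Cell Ranger 2.0.1 and Seurat 2.3.4 were used, while later versions stand in the paper's methods. The files list 27998 genes, with 56 symbols on more than 1 line, which were not named. Coordinates are from the GENCODE annotation of GRCm38.

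Counts were added up per group of cells with Python 3.11.15, numpy 2.4.6, scipy 1.17.1 and pandas 2.3.3 and drawn with matplotlib 3.10.9. Intervals were exact Poisson for levels, conditional binomial for ratios and Clopper-Pearson for shares, at 95%, and cover counting error only. A count of 0 was given a limit of 3 counts. Since cells are not replicates, no p-value was computed. Named are the 4 rule genes, members of 28 gene lists, and the 12 highest and 12 lowest genes of each comparison at a mean of 50 CPM or more, leaving out unnamed gene models and the mitochondrial, ribosomal protein and haemoglobin genes. The rule for the cells and the lists were chosen with earlier results of these data known. Alternatives were 3 or more genes detected, detection after thinning to 5000 UMIs, the study's cell limits (at least 500 genes, at least 20% ribosomal protein UMIs), no shared barcodes, weighting to depth, means over cells, other totals, centring and no minimum CPM. Those on the earlier side, on cells with none of the genes and on cells with 0 Dppa5a UMIs were added after seeing the data. Some genes of the lists are not reported here by name.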

Additional observations from a re-analysis of the deposited data

Results flagged for a closer look

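The UMI limit of the rule leaves out a further set of day 4 barcodes with the genes. Of 960 day 4 barcodes with more than 26000 UMIs, 73 held 2 or more of the 4 genes (7.60%, Clopper-Pearson interval 6.01 to 9.47%), above the 0.189% of Dppa5a-rich day 4 cells within the limits. No comparison here uses these barcodes. The share was also above the 2.14% of cells within the limits. The Dppa5a-rich cells had a median of 11993 UMIs, so these shares were read at unequal depths, and the part of depth or of doublets in it was not tested. On day 6 the share was 83.2% (659 of 792), against 75.5% within the limits. None of 340 day 4 barcodes under 0.5% mitochondrial UMIs held 2 or more of the genes, which by the limit of 3 counts allows a share of up to 0.882%.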

How the results depend on the processing

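The share of day 4 cells that met the rule depended on the detection rule: 0.514% held 3 or more of the genes and 0.706% held 2 or more after thinning to 5000 UMIs. Against other day 4 cells, 371 genes were higher with 3 or more genes detected (32 cells), 331 with detection after thinning (43 cells) and 560 without a minimum CPM, where 375 were lower. On the earlier side alone (61 cells, chosen after seeing the data) 119 were lower. Against day 6, 409 genes were lower with 3 or more genes detected, 459 with detection after thinning, 474 with centred ratios and 1170 without a minimum CPM. Totals without mitochondrial and ribosomal protein genes gave 583 higher genes, and no minimum CPM 994. Causes were not tested, although the rules on detection keep fewer cells and the open filter tests more genes. Of 811 values of single genes under alternatives, 1 changed sign, 191 moved beyond their counting interval and 619 did not. The 1 was Greb1l, at a log2 ratio of -0.0773 with 3 or more genes detected. Its interval of -0.917 to 0.647 includes 0, so no reversed direction was resolved. The study's own limits, leaving out shared barcodes and weighting the compared cells to the depth of the 133 cells moved no count by over 1.5 times. No paired analysis was possible because each day is 1 library with no replicate numbers. For the same reason no replicate could be left out. Genes with few UMIs in 133 cells, such as Fezf1 or Mitf, are limited by depth.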

Other observations

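The 36 day 4 cells with Six6 and none of the other 3 genes, which the rule leaves out, lay in the same direction when set beside cells with 1 of the other genes only. Six3 was at 24.9 CPM in them, against 77.8 CPM in cells with Rax only, 56.0 CPM with Pax6 only and 84.9 CPM with Lhx2 only. Trh was at 108 CPM, against 21.2, 26 and 16 CPM, Ptn at 227 CPM, against 38.3, 51.2 and 59.5 CPM, and Tubb2b at 149.6 CPM, against 59.5, 68.6 and 59.9 CPM. Six6 was also detected in 1.14% of Dppa5a-rich day 4 cells, against 1.06% of all day 4 cells within the limits (66 of 6228 cells). A single Six6 UMI on day 4 therefore cannot be told apart from background. The 36 cells held 66 Six6 UMIs in all, and counts above 1 were not set against that background. On day 6, the 586 Six6 cells without Rax that met the rule had Six3 at 108 CPM and Trh at 4.02 CPM. The levels were 144 CPM and 2.83 CPM in the 2150 Six6 cells with Rax. Of the 586 cells, 451 held both Pax6 and Lhx2, so they are a set unlike the 36 day 4 cells.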
